A study of Mus musculus with 8 samples.

Results

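The expression of 6 genes was followed in intestinal crypts of Mex3a KO mice and their littermate controls: Bmi1, Hopx, Lrig1, Clu, Ly6a and Anxa1. They were chosen by name, as markers of reserve and regenerative stem cells, and all 6 of 6 passed the filter on low counts that left 16109 of 55114 genes for testing. The study prepared crypts, the pockets of intestinal epithelium that hold the stem cells, from 4 KO and 4 control (Ctrl) C57BL/6 mice, 8 weeks old, and sequenced their total RNA. KO mice were Mex3a-/-, a constitutive deletion that removes exon 1 and part of exon 2 in every cell of the animal, so a difference in crypts need not arise in the epithelium. Ctrl mice were wild-type littermates, and no mouse received a treatment. Crypts were released with 10 mM EDTA and passed through a strainer without sorting, so a sample holds all cell types of the crypt and whatever else came loose.

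The small intestine renews itself from crypt base columnar (CBC) stem cells, which divide rapidly and carry Lgr5. Reserve stem cells are slowly cycling or already committed cells that can take over when CBC cells are lost, and Bmi1, Hopx and Lrig1 have each been used to mark them, although transcripts of all of them are also found in CBC cells. After injury, crypts pass through a regenerative state that shares genes with fetal epithelium and depends on the Hippo pathway effector YAP. Ly6a, which encodes the surface protein Sca-1, and Anxa1 are known from that state, and Clu marks rare revival cells that rebuild the CBC pool. Mex3a encodes an RNA-binding protein with KH domains.

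The number of reads counted on genes was 20324184 to 24726221 per Ctrl mouse and 23489180 to 30654105 per KO mouse. Mex3a, the check of the labels, averaged 13.3 ± 2.10 CPM (counts scaled to library size) in Ctrl and 0.613 ± 0.417 CPM in KO (SD, n = 4 each), a log2 fold change of -4.43 with an SE of 0.43 (edgeR's quasi-likelihood test, Benjamini-Hochberg adjusted p = 0.0310; edgeR adjusted p = 0.126 when mice were blocked by replicate number). The summed level of 6 pan-epithelial markers was 6768 to 7234 CPM in Ctrl and 7564 to 8931 CPM in KO, without overlap, and 2 of the 6 were higher at an unadjusted p under 0.05 (5.33% of all tested genes were), while 9 fibroblast and smooth muscle markers summed to at most 15.2 CPM. Ctrl replicate 4 stood apart in some respects: 11.6% of its reads were mitochondrial, against 5.63% to 8.87% in the other mice, and 7 endothelial markers summed to 11.2 CPM, against 2.99 to 5.04 CPM elsewhere. Genes known from gastric epithelium were also read in these crypts, at very unequal levels. The sum of 14 such markers was 68.9, 305, 177 and 1745 CPM in Ctrl replicates 1 to 4, and 459, 49.3, 10.1 and 333 CPM in KO replicates 1 to 4. Gkn2, a secreted protein of gastric surface cells, had 14940 counts in Ctrl replicate 4 and 0 counts in KO replicate 3. This list was written after the genes most similar to Clu had been seen.

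In the genes as annotated, Mex3a's own target sequence could be looked for. MEX3 proteins bind a bipartite RNA element, 2 short 4-base parts separated by up to 8 bases, known as the MEX-3 recognition element. It was searched in the 3' untranslated region of the longest coding transcript of each gene (GRCm38 coordinates, last exon in every case shown), where 74.2% of 13033 tested genes had a match. The matches of 3 members are shown, with the paired parts in capitals: Bmi1, the member with the smallest p, and Ly6a and Anxa1, which had more matches than most genes with untranslated regions of like length.
Bmi1, chr2:18684588-18684599, plus strand: GTAGtgacTTTA
Bmi1, chr2:18684964-18684975, plus strand: TTAGccatTTTA
Bmi1, chr2:18685448-18685457, plus strand: ATAGtgTTTA
Bmi1, chr2:18685520-18685529, plus strand: ATAGatTTTA
Bmi1, chr2:18685771-18685784, plus strand: TTAGcgtgtgTTTA
Bmi1, chr2:18686537-18686548, plus strand: TGAGgcttTTTA
Ly6a, chr15:74995192-74995202, minus strand: GGAGcccTCTA
Ly6a, chr15:74995172-74995180, minus strand: TGAGtTATA
Ly6a, chr15:74995095-74995110, minus strand: GTAGgtaggtgcTCTA
Anxa1, chr19:20373583-20373592, minus strand: ATAGccTATA
Anxa1, chr19:20373572-20373581, minus strand: ATAGatTTTA
Anxa1, chr19:20373461-20373475, minus strand: TGAGaaagaagTTTA

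The 6 matches of Bmi1 lay in 2148 bases of untranslated region, and tested genes of like length had 5.05 matches on average. Ly6a had 3 matches in 384 bases, where genes of like length averaged 0.749, and Anxa1 had 3 in 286 bases, against 0.582. Lrig1 had 5 matches in 1223 bases (average of like length 2.78), Hopx 1 in 751 bases (1.58) and Clu 0 in 230 bases, a length at which 33.3% of genes had any. A match is a stretch of letters and not a measured binding site, and the members with matches were not all on the same side in KO.

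No member passed the threshold of an adjusted p under 0.05 in edgeR or DESeq2, which 0.00621% and 0.578% of all genes passed in these tests. At an unadjusted p under 0.05 the count was 1 of 6, Bmi1, where 8.38% of all tested genes were called and 3.05% were called as lower in KO. In log2 fold change 5 of the 6 were negative and 1, Ly6a, was positive, and their median was -0.15 against -0.02 over all genes tested. Bmi1, Hopx and Lrig1 were measured tightly, with every interval of the log2 fold change inside -0.37 to 0.18, whereas Clu, Ly6a and Anxa1 spread so widely within a genotype that the interval of the difference held both large decreases and increases for Clu and Anxa1, and reached from -0.22 to 1.88 for Ly6a. In bulk samples, fewer cells of a type and less RNA per cell cannot be told apart.

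**Figure D1:**
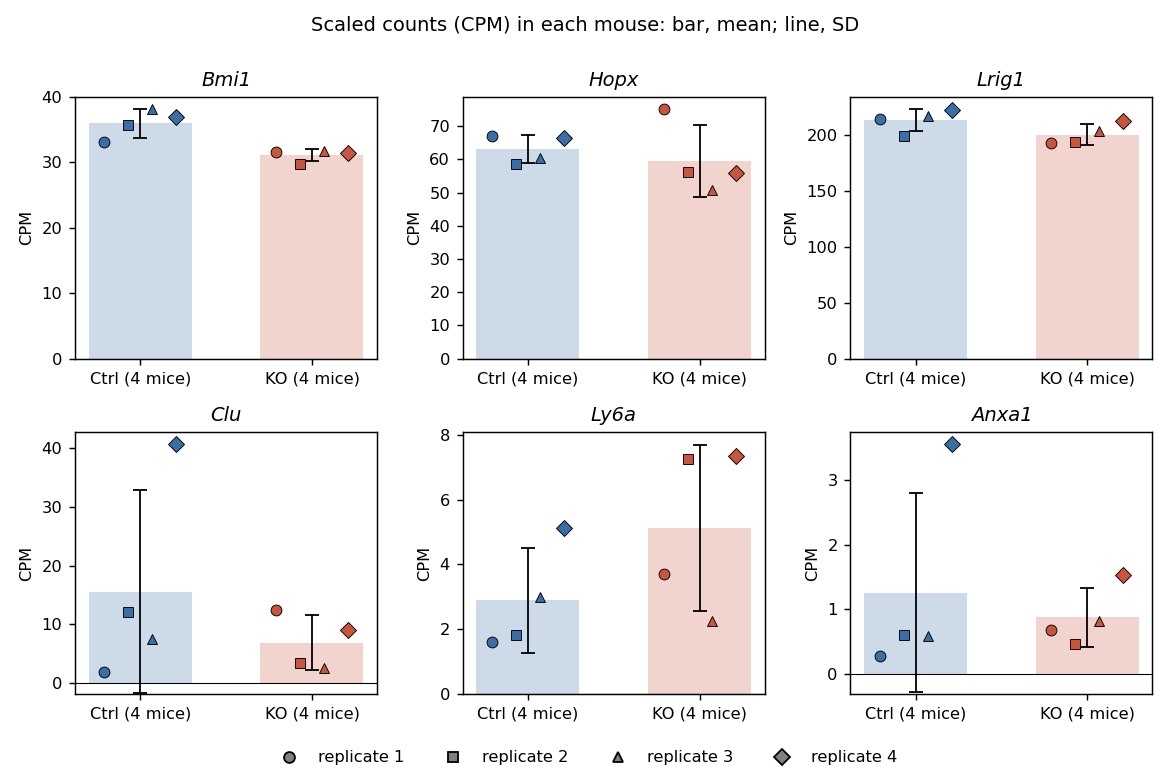
Counts scaled to library size (CPM, vertical axis, starting at 0 for every bar) of the 6 markers in 4 Ctrl and 4 KO mice. Points are mice, marked by replicate number, bars are means and lines are SDs, which reach below 0 for Clu and Anxa1 in Ctrl because replicate 4 stood at 40.6 and 3.55 CPM.

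Bmi1 encodes a subunit of Polycomb repressive complex 1, which silences genes through ubiquitin on histone H2A. The gene (ENSMUSG00000026739, chr2:18677018-18686629, plus strand, GRCm38) was read at 715, 764, 781 and 883 counts in the Ctrl mice, in replicate order, and at 752, 767, 735 and 945 counts in the KO mice. Scaled to library size these were 33.0, 35.7, 38.1 and 36.9 CPM in Ctrl and 31.6, 29.8, 31.8 and 31.4 CPM in KO. All 4 KO mice lay below all 4 Ctrl mice, as they did for 1.87% of tested genes, and the gap between the nearest mice of the genotypes was small. The means were 35.9 ± 2.18 CPM in Ctrl and 31.1 ± 0.934 CPM in KO (SD, n = 4 each), or 0.866-fold. The log2 fold change was -0.21 (SE 0.07, 95% interval -0.37 to -0.04), and edgeR's quasi-likelihood test gave an unadjusted p = 0.0208 and, over all genes, an adjusted p = 0.539. A two-sided exact permutation test gave p = 0.0286, the smallest that 4 mice against 4 allow. The unadjusted p was over 0.05 without Ctrl replicate 3 (0.0702), without Ctrl replicate 4 (0.0555), without KO replicate 2 (0.0669), without the filter on low counts (0.0536) and with the gastric marker sum as a covariate (0.0562).

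Hopx encodes an atypical homeodomain protein that does not bind DNA. The gene (ENSMUSG00000059325, chr5:77086988-77115121, minus strand) had 1238 to 1592 counts in Ctrl mice and 1172 to 1791 in KO mice. It was at 67.0, 58.6, 60.5 and 66.5 CPM in Ctrl replicates 1 to 4 and at 75.2, 56.1, 50.7 and 56.0 CPM in KO replicates 1 to 4. KO replicate 1 was the highest and KO replicate 3 the lowest of the 8 mice, so the Ctrl mice lay inside the range of KO. The means were 63.1 ± 4.22 CPM in Ctrl and 59.5 ± 10.8 CPM in KO (SD, n = 4 each). The log2 fold change of -0.09 (SE 0.12, 95% interval -0.35 to 0.18) did not pass edgeR's quasi-likelihood test (unadjusted p = 0.490, adjusted p = 0.893), nor did the exact permutation test (p = 0.571). Without KO replicate 1 the means were 63.1 and 54.3 CPM, the log2 fold change was -0.22 and the unadjusted p was 0.023 (edgeR, adjusted p = 0.310). Without KO replicate 3 the log2 fold change was -0.016 (edgeR unadjusted p = 0.892), and with the gastric marker sum as a covariate -0.019 (unadjusted p = 0.876). The antisense gene Hopxos overlaps Hopx, and it had at most 50 counts in any mouse.

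Lrig1 encodes a transmembrane protein that dampens signalling of epidermal growth factor receptors. It (ENSMUSG00000030029, chr6:94604529-94700158, minus strand) was the most deeply counted member, with 4271 to 6403 counts per mouse. Its level was 215, 199.5, 217 and 222 CPM in Ctrl replicates 1 to 4 and 193, 194, 203 and 213 CPM in KO replicates 1 to 4. Ctrl replicate 2 lay among the KO mice, and the other Ctrl mice lay above all of KO. The means were 214 ± 9.87 CPM in Ctrl and 200.6 ± 9.54 CPM in KO (SD, n = 4 each), with a log2 fold change of -0.09 (SE 0.07, 95% interval -0.24 to 0.06). This did not pass edgeR's quasi-likelihood test (unadjusted p = 0.216, adjusted p = 0.763) or the exact permutation test (p = 0.114). In all 4 pairs of mice with the same replicate number Ctrl was higher than KO, as it was for Bmi1, where the lack of overlap requires it. No label says that such mice belong together. With the replicate number as a block, edgeR gave an unadjusted p = 0.222 for Lrig1. Slc25a26 overlaps Lrig1 on the other strand with 336 counts on average, and whether strand was used in counting is not given in the sources used here.

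Clu encodes clusterin, a secreted chaperone. Its counts (ENSMUSG00000022037, chr14:65968483-65981547, plus strand) were 42, 261, 154 and 972 in the Ctrl mice, in replicate order, and 297, 88, 60 and 273 in the KO mice. In CPM these were 1.94, 12.2, 7.52 and 40.6 in Ctrl and 12.5, 3.41, 2.60 and 9.08 in KO. The lowest and the highest of the 8 mice were both Ctrl, 20.9-fold apart, and all KO mice lay between them. The means were 15.6 ± 17.2 CPM in Ctrl and 6.89 ± 4.71 CPM in KO (SD, n = 4 each). The log2 fold change was -1.18 with an SE of 0.81 and a 95% interval of -3.00 to 0.64 (edgeR, unadjusted p = 0.179, adjusted p = 0.731), and the exact permutation test gave p = 0.543. Without Ctrl replicate 4 the means were 7.22 and 6.89 CPM and the log2 fold change was -0.07 (edgeR, unadjusted p = 0.924).

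The spread of Clu was large for its level: its coefficient of variation was 111% in Ctrl, higher than that of 99.5% of tested genes within 2-fold of its level there, and 68.3% in KO, higher than that of 97.1%. Over the 8 mice the genes most like Clu in log2 CPM, among 11245 protein-coding genes compared, were Mal (Pearson r = 0.982), Sptssb (0.968) and Ctse (0.966), given as a description over mice that share these libraries. Mal encodes a membrane proteolipid of apical transport, Sptssb a small subunit of serine palmitoyltransferase, and Ctse cathepsin E, an aspartic protease abundant in the stomach. Ctse was at 1.62, 13.1, 6.49 and 80.0 CPM in Ctrl replicates 1 to 4 and at 14.3, 1.47, 0.779 and 16.8 CPM in KO replicates 1 to 4. The summed gastric markers followed a similar order: Ctrl replicate 4 was first and KO replicate 1 second of the 8 mice in both that sum and Clu, and the 3 lowest mice were the same in both. Of the 14 gastric markers 11 were highest in Ctrl replicate 4 and 12 were lowest, ties included, in KO replicate 3. With the log2 of that sum as a covariate in the edgeR fit, chosen after the values were seen, the log2 fold change of Clu was 0.09 (unadjusted p = 0.845). The gastric list was written after the genes most like Clu had been seen. A smaller difference of Clu was therefore largely built into this fit, and no conclusion is drawn from it. The part of gastric cells in the Clu values was not tested.

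**Figure D2:**
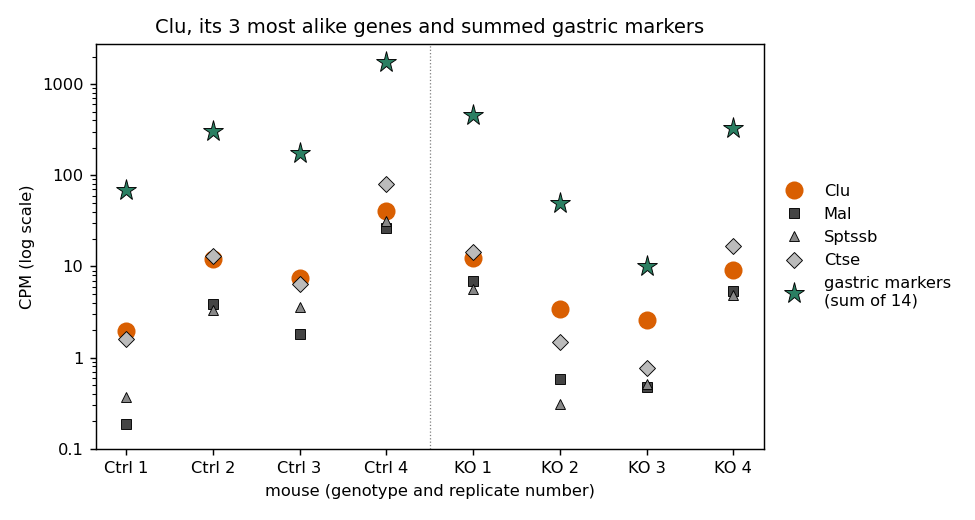
CPM on a log axis of Clu, of its 3 most alike genes (Mal, Sptssb, Ctse) and of the sum of 14 gastric markers in each of the 8 mice, Ctrl left and KO right of the dotted line. All 5 series peak in Ctrl replicate 4, where Clu is at 40.6 CPM and the gastric sum at 1745 CPM.

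Ly6a encodes Sca-1, a surface protein held by a lipid anchor, which is also made by lymphocytes and endothelium and is induced by interferon. Ly6a (ENSMUSG00000075602, chr15:74994877-74998031, minus strand) was read at 35, 39, 61 and 123 counts in the Ctrl mice, in replicate order, and at 88, 187, 52 and 221 counts in the KO mice. In CPM these were 1.62, 1.82, 2.98 and 5.14 in Ctrl and 3.69, 7.26, 2.25 and 7.35 in KO. KO replicates 2 and 4 were above every Ctrl mouse, while KO replicates 1 and 3 lay inside the Ctrl range, and KO was the higher in 3 of the 4 pairs of like number. The means were 2.89 ± 1.61 CPM in Ctrl and 5.14 ± 2.57 CPM in KO (SD, n = 4 each), or 1.78-fold. With a log2 fold change of 0.83 (SE 0.47, 95% interval -0.22 to 1.88), Ly6a had the largest positive value of the 6, and it did not pass edgeR's quasi-likelihood test (unadjusted p = 0.107, adjusted p = 0.660) or the exact permutation test (p = 0.200). The unadjusted p was under 0.05 without Ctrl replicate 4 (log2 fold change 1.27, edgeR unadjusted p = 0.0213), without KO replicate 3 (1.07, unadjusted p = 0.0344) and with the gastric marker sum as a covariate (1.27, unadjusted p = 0.021). It was over 0.05 in the other 14 of 17 alternatives, and the log2 fold change was lowest without KO replicate 4 (0.60, edgeR unadjusted p = 0.257). Ly6a has near-identical neighbours in its family, and how reads shared between them were counted is not given in the sources used here, so its counts are uncertain to that extent.

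Other sources of Ly6a transcript were measured beside it. Of 9 tested T cell markers 5 reached an unadjusted p under 0.05 with higher values in KO (5.33% of all tested genes did), and the sum of the 10 markers was 15.5 to 57.5 CPM in Ctrl and 34.8 to 129 CPM in KO. The highest T cell sum was in KO replicate 3, the KO mouse with the lowest Ly6a, whereas among Ctrl mice replicate 4 had the highest and replicate 3 the next highest value of both (T cell sums of 57.5 and 26.9 CPM). None of these T cell markers was called without KO replicate 3. The endothelial sum was 3.32 to 11.2 CPM in Ctrl and 2.99 to 4.79 CPM in KO. Of 23 tested interferon response genes 3 did so and 20 had a positive log2 fold change, with a median of 0.39 against -0.02 over all genes; Irf7, a transcription factor of that response, was at 21.2 CPM in Ctrl and 42.4 CPM in KO (edgeR unadjusted p = 0.0232), beside Mx1 (log2 fold change 0.88) and Zbp1 (0.98). With the replicate number as a block 10 of these genes were called as higher (7.14% of all genes were), and without Ctrl replicate 4, 9 (6.41%), but 1 was without Ctrl replicate 2 and 1 without KO replicate 4. Irf7 was over the threshold without Ctrl replicate 1, Ctrl replicate 2, KO replicate 3 or KO replicate 4, and Zbp1 without Ctrl replicate 1, 2 or 3 or KO replicate 2 or 4. The part of these cells and of interferon in the Ly6a values was not tested.

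Anxa1 encodes annexin A1, a calcium-dependent phospholipid-binding protein that calms inflammation through formyl peptide receptors and is abundant in myeloid cells. It (ENSMUSG00000024659, chr19:20373428-20390944, minus strand) was close to the limit of detection, with 6, 13, 12 and 85 counts in the Ctrl mice, in replicate order, and 16, 12, 19 and 46 counts in the KO mice. In CPM these were 0.277, 0.607, 0.586 and 3.55 in Ctrl and 0.672, 0.466, 0.822 and 1.53 in KO. Ctrl replicate 4 was the highest and Ctrl replicate 1 the lowest of the 8 mice, as for Clu. The means were 1.26 ± 1.54 CPM in Ctrl and 0.872 ± 0.462 CPM in KO (SD, n = 4 each), with a log2 fold change of -0.53 (SE 0.74, 95% interval -2.18 to 1.13; edgeR, unadjusted p = 0.492, adjusted p = 0.894; exact permutation test, p = 0.914). The direction turned without Ctrl replicate 4, when the means were 0.490 and 0.872 CPM (log2 fold change 0.84, edgeR unadjusted p = 0.126), and also with the gastric marker sum as a covariate (0.48, unadjusted p = 0.520). The sum of 10 myeloid markers overlapped between genotypes, at 28.7 to 40.8 CPM in Ctrl and 29.0 to 40.7 CPM in KO. None of the 3 formyl peptide receptors passed the filter on low counts.

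**Figure D3:**
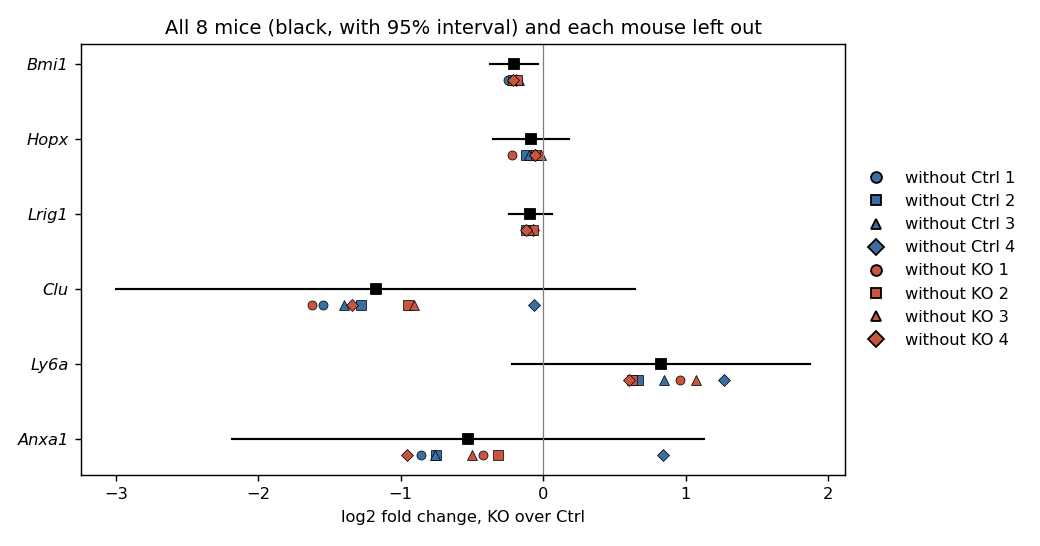
Log2 fold change, KO over Ctrl, of the 6 markers (horizontal axis): black squares with lines are all 8 mice with the 95% interval from edgeR, and coloured points leave out 1 mouse each. Bmi1 and Lrig1 hardly move, Hopx lies at -0.22 without KO replicate 1 and at -0.016 when KO replicate 3 is left out, Ly6a between 0.60 and 1.27, Clu goes from -1.18 to -0.07 and Anxa1 from -0.53 to 0.84 without Ctrl replicate 4.

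Per length of gene, which allows genes to be compared, the level in FPKM was highest for Hopx and lowest for Anxa1 in both genotypes. In Ctrl the means were 41.3 FPKM for Hopx, 37.9 for Lrig1, 8.97 for Bmi1, 4.49 for Clu, 2.38 for Ly6a and 0.477 for Anxa1. In KO they were 39.2 FPKM for Hopx, 35.8 for Lrig1, 7.82 for Bmi1, 4.25 for Ly6a, 2.00 for Clu and 0.334 for Anxa1. Hopx was above Lrig1 in 6 of 8 mice and Ly6a above Clu in 5 of 8, so the order of these neighbours was not the same in every mouse. Bmi1 was above Clu in 3 of 4 Ctrl mice, since in Ctrl replicate 4 Clu was at 11.7 FPKM and Bmi1 at 9.20 FPKM. Lrig1 was above Bmi1, Bmi1 above Ly6a and Clu above Anxa1 in all 8 mice. In Ctrl, Hopx exceeded 92.2% of tested genes in mean FPKM, Lrig1 91.4%, Clu 49.6%, Ly6a 37.4% and Anxa1 15.0%.

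**Figure D4:**
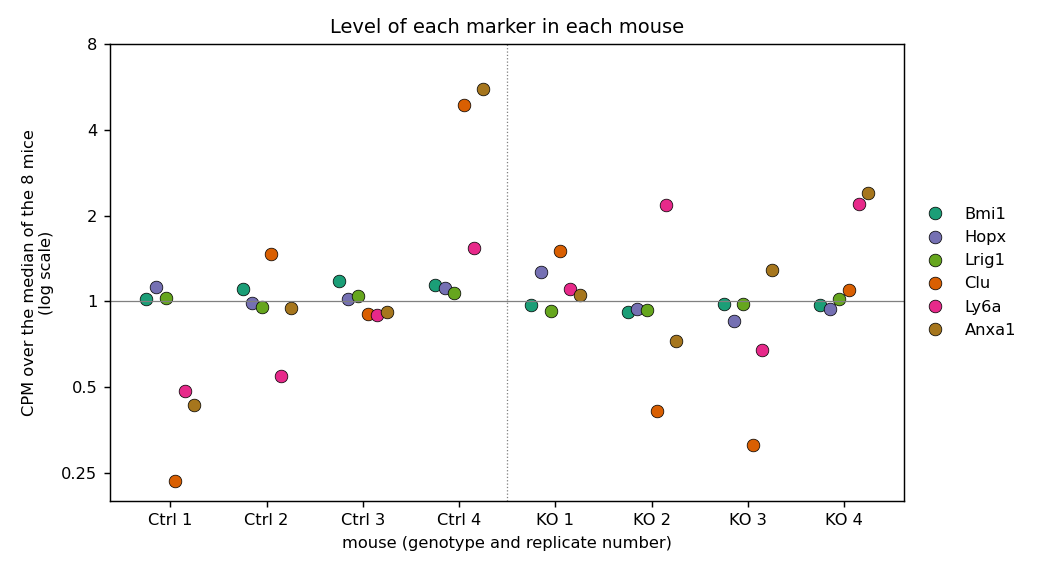
CPM of each marker divided by its median over the 8 mice (vertical log axis) for every mouse, Ctrl left and KO right of the dotted line. Bmi1, Hopx and Lrig1 stay near 1 in every mouse, while Clu and Anxa1 reach 4.89 and 5.55 in Ctrl replicate 4 and Ly6a reaches 2.17 and 2.20 in KO replicates 2 and 4.

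Across the 8 mice the members did not move as one group. As a description over mice that share libraries, Pearson r of log2 CPM was 0.779 between Clu and Anxa1, 0.644 between Bmi1 and Lrig1, and -0.353 between Bmi1 and Ly6a. The genes most like Bmi1 were Clic6 (r = 0.943), Ring1 (0.941) and Cbx3 (0.934), of which Ring1 is a catalytic subunit of Polycomb repressive complex 1 and Cbx3 a heterochromatin protein. For Lrig1 they were Prkci (0.975), an atypical protein kinase C of cell polarity, Kdm2b (0.958), a histone demethylase, and Anks6 (0.953). Hopx was most like Sdc2 (0.962), Faap24 (0.940) and Slc25a28 (0.935), Ly6a like Rab43 (0.946), Tmem170 (0.938) and Triqk (0.930), and Anxa1 like Tgfb1 (0.931), Gsdma2 (0.918) and Fhl1 (0.912). With 11245 genes compared over 8 mice, values over 0.9 were reached by 4 to 20 genes for every member.

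Other reserve and facultative stem cell markers went both ways. Of 9 tested, 2 were lower and 2 higher at an unadjusted p under 0.05, where 3.05% of all genes were lower and 5.33% higher, and 0 passed the adjusted threshold. Msi1, an RNA-binding protein of stem cells, was at 44.3, 47.2, 44.1 and 49.7 CPM in Ctrl replicates 1 to 4 and at 39.0, 33.8, 34.4 and 36.5 CPM in KO replicates 1 to 4, all below Ctrl (log2 fold change -0.37, SE 0.08, edgeR unadjusted p = 0.000805, adjusted p = 0.429; DESeq2 adjusted p = 0.0226, in a test that called more genes over the whole table). Tert, the catalytic subunit of telomerase, was at 16.1 ± 0.295 CPM in Ctrl and 12.2 ± 1.36 CPM in KO (SD, n = 4; log2 fold change -0.40, edgeR unadjusted p = 0.00484). Dll1, a Notch ligand of secretory progenitors that can revert to stem cells, was slightly higher in KO (48.6 and 54.7 CPM, log2 fold change 0.17, edgeR unadjusted p = 0.0288), as was Krt19, a keratin made broadly in the crypt (log2 fold change 0.20, edgeR unadjusted p = 0.0334). Sox9, a transcription factor of crypt progenitors, was over that threshold (log2 fold change -0.28, edgeR unadjusted p = 0.0567) but under it in 6 of 17 alternatives, the replicate block among them (unadjusted p = 0.0168). Without Ctrl replicate 1 the log2 fold change of Sox9 was -0.15 (edgeR unadjusted p = 0.163). Krt19 was under 0.05 in 8 of 17 alternatives and Dll1 in 12 of 17. The count of 4 was 6 under the replicate block and 2 without Ctrl replicate 1, KO replicate 3 or KO replicate 4. For comparison, 6 of 9 CBC markers were lower in KO and 0 higher at the same threshold (3.05% of all genes were lower), with a median log2 fold change of -0.28. The count was 3 without KO replicate 2, 3 or 4 and 3 with the gastric marker sum as a covariate. Markers of other crypt cells were measured beside them: the sum of 6 Paneth cell markers averaged 25234 CPM in Ctrl and 15386 CPM in KO, with 0 of 6 under the threshold and a median log2 fold change of -0.67, and 9 enterocyte markers had a median of 0.94. Their part in the CBC values was not tested. The smallest p were those of Rgmb (log2 fold change -0.38, edgeR unadjusted p = 0.0086), Smoc2 (-0.31, unadjusted p = 0.00892) and Olfm4 (-0.34, unadjusted p = 0.0189), and Lgr5 was at 87.8 ± 22.4 and 62.1 ± 16.4 CPM (SD, n = 4; -0.50, unadjusted p = 0.0493). Lgr5 was under that threshold in 7 of 17 alternatives, and without Ctrl replicate 4 edgeR gave an unadjusted p = 0.135.

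Around Bmi1, all 21 Polycomb genes of the list were tested: at an unadjusted p under 0.05, 1 was higher and 3 were lower (5.33% and 3.05% of all genes), with a median log2 fold change of -0.12. Cbx6 (log2 fold change -0.56, edgeR unadjusted p = 0.0184), Phc1 (-0.40, unadjusted p = 0.0211) and Pcgf5 (-0.18, unadjusted p = 0.0458), all subunits of Polycomb complexes, were lower, and Rybp, a subunit of variant complexes, was higher (0.25, edgeR unadjusted p = 0.0145). Pcgf5 was under 0.05 in 4 of 17 alternatives (edgeR unadjusted p = 0.0766 with the replicate block). Cdkn2a, the classical target that Bmi1 keeps silent, did not pass the filter on low counts and was at 0.0349 CPM in Ctrl and 0.123 CPM in KO. Around Lrig1, 5 genes of its family and of the epidermal growth factor (ERBB) receptors were tested. At an unadjusted p under 0.05, 1 was lower and 0 were higher (3.05% of all genes were lower). In log2 fold change 3 of the 5 were positive, and the median was 0.05. The lower gene was the receptor Egfr, at 50.4 CPM in Ctrl and 43.4 CPM in KO (log2 fold change -0.21, edgeR unadjusted p = 0.0134). The paralogs Lrig2 (-0.06, edgeR unadjusted p = 0.611) and Lrig3 (0.06, unadjusted p = 0.660) did not pass.

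Regenerative and fetal-like genes other than the members held several with higher values in KO. Of 22 tested, 6 were higher and 0 lower at an unadjusted p under 0.05, where 5.33% of all genes were higher, although the list's median log2 fold change was only 0.04 and 0 genes passed the adjusted threshold in edgeR. Anxa2, the annexin of the cell cortex, was at 225, 258, 194 and 255 CPM in Ctrl replicates 1 to 4 and at 320, 344, 403 and 330 CPM in KO replicates 1 to 4, with no overlap, as for 2.17% of all genes with KO on top (log2 fold change 0.58, SE 0.11, edgeR unadjusted p = 0.000522, adjusted p = 0.400; DESeq2 adjusted p = 0.001, with the same reservation as for Msi1). Plaur, the urokinase receptor, was at 3.06 and 5.41 CPM (log2 fold change 0.82, edgeR unadjusted p = 0.00238; DESeq2 adjusted p = 0.0339). The epidermal growth factor receptor ligands Areg (log2 fold change 0.76, edgeR unadjusted p = 0.00424) and Ereg (1.18, unadjusted p = 0.00525), the tight junction gene Cldn4 (0.74, unadjusted p = 0.00642) and the membrane protein gene Emp1 (1.07, unadjusted p = 0.00805) were the others. The count was 6 or 7 in all 8 fits that left out 1 mouse, and 6 with the gastric marker sum as a covariate (3.23% of all genes were then higher).

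Several of these 6 genes are also made by differentiated epithelium, and the enterocyte markers were also higher on average in KO. The sum of 9 enterocyte markers was 1496 to 4302 CPM in Ctrl and 2501 to 10145 CPM in KO, with 3 of 9 higher at an unadjusted p under 0.05 (5.33% of all genes were) and a median log2 fold change of 0.94. KO replicate 3 had the highest enterocyte sum and also the highest Anxa2 and Emp1 (97.7 CPM, against 39.2 to 81.6 CPM in the other KO mice). Areg was highest in KO replicate 1 (13.9 CPM), the KO mouse with the lowest enterocyte sum (2501 CPM). Ereg was highest in KO replicate 4 (7.81 CPM), whose enterocyte sum (6105 CPM) was the next highest after KO replicate 3. The part of enterocytes in these values was not tested. Gja1, a gap junction gene of the same list, did not pass the filter on low counts and averaged 0.337 CPM in Ctrl and 0.187 CPM in KO.

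**Figure D5:**
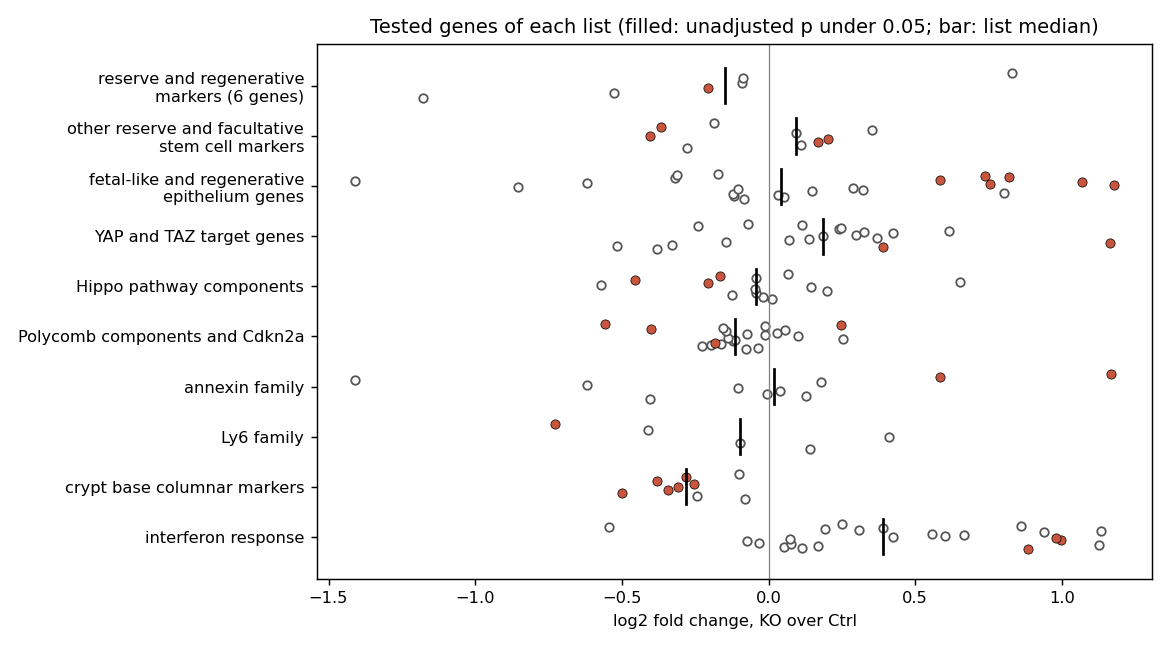
Log2 fold change, KO over Ctrl, of every tested gene in the 6 markers and in 9 lists of related genes (horizontal axis). Filled points have an unadjusted p under 0.05 from edgeR and black bars are list medians, which lie at 0.04 for fetal-like genes, -0.28 for CBC markers and 0.39 for interferon response genes.

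YAP and TAZ, which act on the fetal-like genes, were followed through their targets and regulators. Of 19 tested YAP and TAZ target genes 2 were higher at an unadjusted p under 0.05 (5.33% of all genes), Lats2, a kinase that restrains YAP (0.906 and 2.04 CPM, log2 fold change 1.16, edgeR unadjusted p = 0.00796), and Nuak2, another kinase (36.5 and 47.9 CPM, 0.39, unadjusted p = 0.00802), and 0 were lower. Of 14 tested Hippo pathway components 3 were lower and 0 higher (3.05% of all genes were lower): the effector Yap1 at 115 and 102 CPM (-0.17, edgeR unadjusted p = 0.0251), its DNA-binding partner Tead2 at 7.85 and 5.72 CPM (-0.45, unadjusted p = 0.0200) and Vgll4, a competitor of YAP (-0.21, unadjusted p = 0.0303). Of 17 alternatives, Yap1 was under 0.05 in 11, Vgll4 in 12 and Tead2 in 15. Of all these, 0 passed the adjusted threshold. The core of the TEAD motif, GGAATG on either strand, was searched in the promoter windows that the RefSeq table gives for 4 of the 6 members (none for Clu and Ly6a), from 250 bases before to 50 after a start site (GRCm38.p6), and is in 14.7% of all 32851 such windows. It was found in Bmi1 and Anxa1 and not in Hopx or Lrig1. The matches are printed with 12 bases on both sides and the core in capitals. The RefSeq start used for Anxa1 lies downstream of the start in the deposited table, so its stretch is inside the gene as given above.
Bmi1, chr2:18676778-18676807, plus strand: ggccgcccttaaGGAATGaggggagcacgt
Anxa1, chr19:20390890-20390919, minus strand: actgcactgaacCATTCCtgtgaggaataa

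Family members of Ly6a and Anxa1 did not share a direction. Of 14 Ly6 family genes 5 passed the filter on low counts, and 1 of them, Ly6g6d, was lower in KO where 3.05% of all genes were (1.19 and 0.713 CPM, log2 fold change -0.73, edgeR unadjusted p = 0.00961), while Ly6e, broadly made in epithelium and leukocytes, was at 157 ± 25.2 CPM in Ctrl and 147 ± 33.5 CPM in KO (SD, n = 4; edgeR unadjusted p = 0.589). Of 10 tested annexins 2 were higher at an unadjusted p under 0.05 (5.33% of all genes), Anxa2 and Anxa13, an annexin of intestinal epithelium (2.80 and 6.31 CPM, log2 fold change 1.17, edgeR unadjusted p = 0.0103), and 0 were lower.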

How the data were processed

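Crypt RNA of 4 Ctrl and 4 KO mice was sequenced on an Illumina NovaSeq instrument. As deposited by the authors, the table holds unnormalized counts of reads for each gene, and FPKM values. Within each mouse the FPKM were found to be proportional to counts divided by gene length. Their scaling between mice was not checked. The submitters' processing notes name CASAVA, HISAT2 2.0.5 and featureCounts 1.5.0-p3; the genome build and strand setting are not given in the sources used here, and gene coordinates match GRCm38. The deposited fold changes, p-values, group values and lists of the authors' own comparison were not used. Each replicate is a separate mouse.

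Counts were tested with edgeR 4.0.16 (R 4.3.3): filterByExpr with a minimum count of 10, TMM factors, and the quasi-likelihood test on genotype with all 8 mice, with Benjamini-Hochberg adjustment over 16109 genes and a threshold of 0.05. CPM use the same factors. The script was first tested on simulated data with known changes, in which DESeq2 made false calls more often than edgeR. The simulated counts used dispersions estimated by edgeR, which may favour edgeR. They had no deviation shared by mice of like number, unlike the real data. Single genes were also compared by exact permutation of genotype, two-sided, with 70 possible assignments. Alternatives were DESeq2 1.42.0, upper-quartile or RLE factors, an unfiltered table, at least 10 counts in every mouse, limma 3.58.1 on log2(FPKM + 1) and log2(FPKM + 0.1), the replicate number as a block, and each mouse left out. A fit with the summed gastric markers as a covariate was chosen after seeing the data. The genotypes share replicate numbers, and mice of like number deviated together from the means of their genotypes (r = 0.129 to 0.501 over all genes, 0.09 to 0.473 over autosomal genes); the test used here has no block, and blocked values are printed for the calls it alters. No label says that a number marks a litter. Libraries of a genotype differed by more than sampling noise (chi-square 20.9 to 76.5 times its degrees of freedom).

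The members and gene lists were chosen with earlier results of these data known. Named beside the members are up to 3 genes with the smallest p of each related list or family, further genes of the fetal-like list chosen after their values were seen, as were Lgr5, Gja1, Cdkn2a, Ly6e, Pcgf5, Krt19, Sox9 and Gkn2, and the 3 protein-coding genes most like each member by Pearson r. Promoter windows were read from RefSeq. Precision rests on 4 mice per genotype.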

Additional observations from a re-analysis of the deposited data

Results flagged for a closer look

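Within each genotype, the highest or lowest mouse was compared with the other mice by Dixon's ratio for the 6 markers and for the summed cell type markers, 38 groups of 4 in all. In 2 of them a mouse stood apart, where chance alone gives about 1.9. Anxa1 was at 3.55 CPM in Ctrl replicate 4, against 0.277 to 0.607 CPM in the other Ctrl mice. The sum of 6 goblet cell markers was 3884 CPM in Ctrl replicate 1, the lowest of the Ctrl mice.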

How the results depend on the processing

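Beside the 1 gene with an adjusted p under 0.05 over all genes, DESeq2 called 93, limma on log2(FPKM + 1) and on log2(FPKM + 0.1) 2 each, the fit without a filter 2, and at least 10 counts in every mouse, the replicate block and the gastric covariate 0 each. Leaving out 1 mouse gave 0 to 4. The 1350 genes with an unadjusted p under 0.05 became 874 with the gastric covariate, and 846 (without KO replicate 3) to 2133 (without KO replicate 1) without 1 mouse. The 1 member so called became 0 without a filter and 0 to 2 without 1 mouse: 0 without Ctrl replicate 3 or KO replicate 2, and 2 without KO replicate 1 or KO replicate 3. Without Ctrl replicate 4, and with the gastric covariate, the 1 was Ly6a in place of Bmi1. Counts of called genes without 1 mouse were 2 to 5 (4 with all mice) for other reserve markers, 3 to 5 (6) for CBC markers lower in KO, 1 to 9 (3) for interferon response genes and 0 to 7 (5) for T cell markers. With the gastric covariate they were 3 CBC markers, 6 interferon response genes and 3 T cell markers. With the replicate number as a block, 10 interferon response genes (3 without it), 7 fetal-like genes (6) and 6 T cell markers (5) were called, and no call of a member changed (unadjusted p of 0.0345 for Bmi1 and 0.0654 for Ly6a). Mex3a had an adjusted p of 0.126 under the block, 0.186 with the gastric covariate, and 0.0748 to 0.214 in the 6 fits without 1 mouse that were over the threshold. Directions turned for Clu with the gastric covariate (log2 fold change 0.085), for Anxa1 with that covariate (0.48) and without Ctrl replicate 4 (0.84, in a range from -0.96 over the mice left out), for Lrig2 without Ctrl replicate 1 (0.012, in a range from -0.12) and for Lrig3 without Ctrl replicate 4 (-0.031, in a range up to 0.20); the cause was not tested. Anxa1 and Mex3a gave no value where at least 10 counts were required in every mouse, so the 0 there is not a lost call of Mex3a. At 6 to 85 counts, Anxa1 could show only large differences.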

Other observations

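Anxa10, an annexin known from gastric epithelium that is also on the fetal-like list, was singled out after its values were seen. It was at 0.554, 6.91, 2.25 and 44.0 CPM in Ctrl replicates 1 to 4 and at 10.3, 0.737, 0.00 and 9.18 CPM in KO replicates 1 to 4, highest in the same mouse as Clu. Of the 10 gastric markers tested, 0 were higher and 1 was lower in KO at an unadjusted p under 0.05 (edgeR), where 5.33% and 3.05% of all tested genes were, and their summed levels overlapped between genotypes. Muc5ac, the mucin of gastric surface cells, went from 28 to 2658 counts among Ctrl mice and from 6 to 1279 among KO mice.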
